A study of Mus musculus with 67 samples.

Results

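The proteasome subunit genes were measured as mRNA in sorted mouse monocytes, their marrow precursors and monocytes after transfer. They were taken as every gene whose symbol starts with Psma, Psmb, Psmc, Psmd or Psme followed by a digit, without the immune subunits Psmb8, Psmb9 and Psmb10. This gave 42 of the 24421 genes in each of the 3 expression tables. A filter on low values left 41 members in the 7-week table and 40 in each of the other tables, so that counts below are over the members tested. Psmb11, a 20S subunit of the thymus, was tested nowhere and its highest group mean was 0.0676 RPM, in the 7-week MDP. Psma8, a 20S subunit of the testis, was tested only in the 7-week table. Psmc3ip fits the spelling but encodes a protein of meiotic recombination, so it is kept apart from the subunits. Levels are given as RPM, the reads of a gene per 1000000 in its library. In the transfer table the total is that of the gene values alone, so its RPM are on another scale.

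The 7-week samples came from C57BL/6 mice and comprised macrophage and dendritic cell precursors (MDP, n = 4), committed monocyte precursors (cMoP, n = 4), Ly6C+ (n = 3) and Ly6C- monocytes (n = 4) of the bone marrow, and, from the blood, 4 libraries of Ly6C+, 3 of Ly6Cint and 3 of Ly6C- monocytes. A second table held MDP, cMoP and Ly6C+ monocytes from the marrow of 8-week C57BL/6 mice, and blood monocytes from 16-week mice of mixed background, Ly6C+ and Ly6Cint in ko and wt mice and Ly6C- in wt mice only (n = 2 each). The title names C/EBPb as the gene under study, but the ko allele is not described in the sources used here. In the transfer table, from 8-week C57BL/6 mice, marrow Ly6C+ monocytes were profiled before transfer and again as grafts from the blood and spleen at 24, 36 and 48 h, together with Ly6C+, Ly6Cint and Ly6C- cells of the hosts at 24 h (n = 2 each). All cells were sorted by flow cytometry, the marrow and blood cells of the 7-week and 16-week mice after enrichment with an antibody to CD115, a receptor that cells of the monocyte lineage carry.

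The proteasome is the main protease of the cytosol and nucleus. Its core, the 20S particle, is a barrel of alpha rings, which gate the entry, around beta rings, which hold the catalytic sites. The 19S particle caps the barrel: its base carries the ATPases that unfold a protein and scaffold subunits that bind ubiquitin, and its lid removes the ubiquitin chain. Other caps, the PA28 and PA200 activators, open the core without ATP. Immune cells can build the core with immune catalytic subunits in place of the standard ones, which alters the peptides cut for presentation on MHC class I. Blood Ly6C+ monocytes arise from dividing precursors in the marrow, and most Ly6C- monocytes arise from Ly6C+ cells.

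Promoter sequences are shown for a catalytic subunit, a lid subunit and a ubiquitin receptor whose levels differed between populations, because proteasome genes are known to be induced through antioxidant response elements bound by Nrf1 and Nrf2. The sequences are the 250 bases before the transcription start in RefSeq, build GRCm38.p6, written in the direction of transcription. Capitals mark the antioxidant element TGACNNNGC, the CCAAT box or the interferon-type element (GAAA, any 2 bases, GAAA), on either strand. The windows lie at chr14:54617996-54618245 (minus strand) for Psmb5, chr2:61711444-61711693 (plus strand) for Psmd14 and chr3:95042615-95042864 (minus strand) for Psmd4.
Psmb5: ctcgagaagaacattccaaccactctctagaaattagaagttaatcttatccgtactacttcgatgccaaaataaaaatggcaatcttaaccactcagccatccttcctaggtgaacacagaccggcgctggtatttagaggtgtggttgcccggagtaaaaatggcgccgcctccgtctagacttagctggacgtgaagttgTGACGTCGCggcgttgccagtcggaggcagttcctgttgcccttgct
Psmd14: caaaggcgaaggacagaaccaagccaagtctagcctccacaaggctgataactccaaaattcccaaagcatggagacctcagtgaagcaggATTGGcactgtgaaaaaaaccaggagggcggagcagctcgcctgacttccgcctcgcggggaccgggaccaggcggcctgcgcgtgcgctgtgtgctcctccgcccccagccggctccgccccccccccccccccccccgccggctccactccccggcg
Psmd4: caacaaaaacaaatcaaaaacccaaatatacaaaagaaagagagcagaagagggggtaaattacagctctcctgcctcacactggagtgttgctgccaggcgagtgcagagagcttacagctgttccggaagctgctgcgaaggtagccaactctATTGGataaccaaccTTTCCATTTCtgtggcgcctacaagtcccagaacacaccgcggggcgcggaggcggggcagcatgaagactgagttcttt
The Psmb5 window held an antioxidant element starting 47 bases before the start. The Psmd14 window held a CCAAT box at 159 bases. The Psmd4 window held a CCAAT box at 95 bases and an interferon-type element at 80 bases. Of the 35 members with a window, 5 held the antioxidant element (Psmb5, Psmb6, Psmc6, Psmd12 and Psmd9), which is 14.3% against 12% of 17492 genes. The CCAAT box was found in 14 members (40%, against 39.5% of genes), the interferon-type element in 3 (8.57%, against 3.48%), the E2F letters TTTCCCGC in Psmc4 alone (2.86%, against 1.35%) and the GC box GGGCGG in 20 (57.1%, against 45.8%). These are matches of letters and not sites shown to be bound.

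At 7 weeks, summed proteasome subunit mRNA was highest in the cMoP, lower in marrow Ly6C+ monocytes and lower again in the blood. The 31 subunits of the 26S proteasome (20S core and 19S cap) summed to 5106 ± 233 RPM in MDP (SD, n = 4), 5795 ± 168 RPM in cMoP (n = 4), 4533 ± 97 RPM in marrow Ly6C+ monocytes (n = 3), 3478 ± 151 RPM in blood Ly6C+ (n = 4), 2614 ± 60.5 RPM in blood Ly6Cint (n = 3) and 2814 ± 228 RPM in blood Ly6C- cells (n = 3). The lowest sum was 2287 ± 149 RPM, in marrow Ly6C- cells (n = 4). The libraries of the 7 populations did not overlap in this sum, other than blood Ly6Cint (2569 to 2683 RPM) with blood Ly6C- (2551 to 2955 RPM). Of the 31 subunits, 26 had their highest mean in cMoP and 18 had their lowest in marrow Ly6C- cells. The sum is given as a description, without a test.

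**Figure D1:**
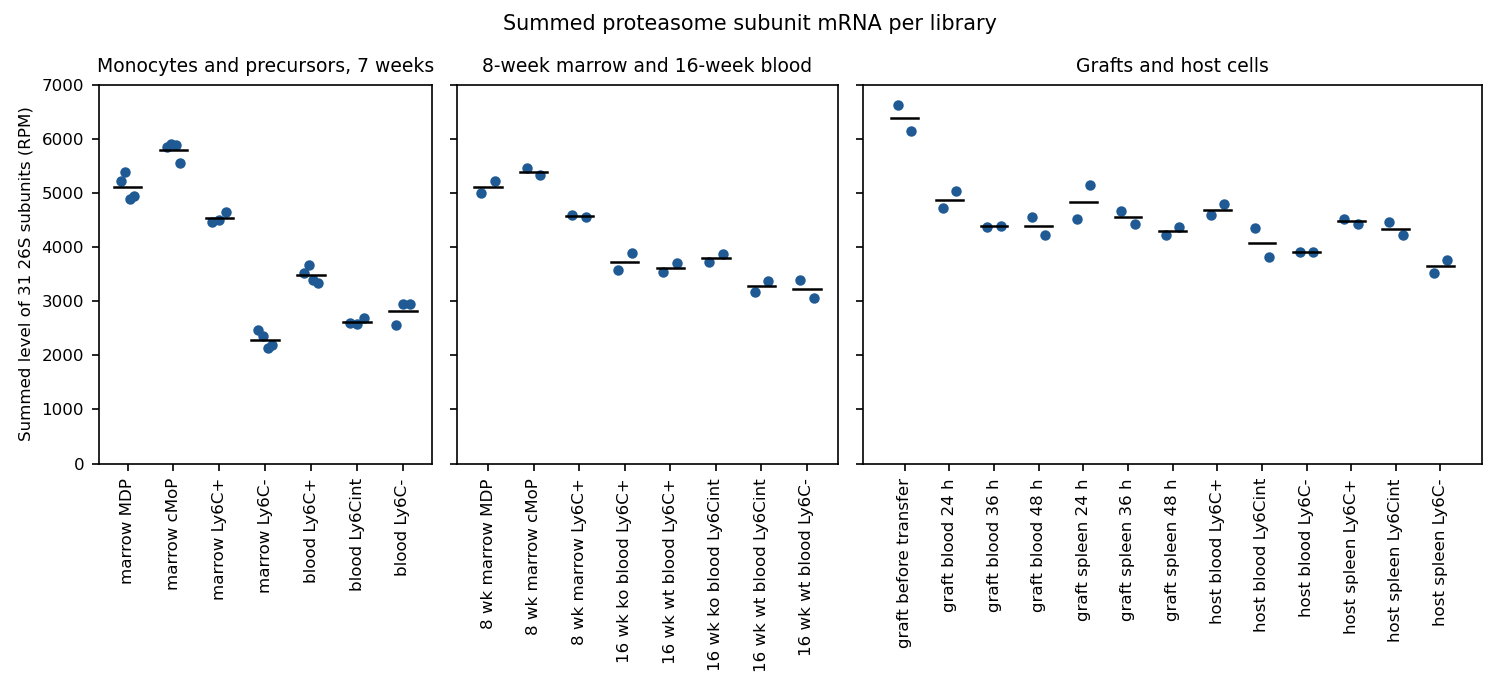
Summed level of the 31 subunits of the 26S proteasome in RPM (y axis) for each library (points) by population (x axis), with the group mean as a bar, in the 3 tables. In the 7-week table the cMoP lie between 5544 and 5906 RPM and the marrow Ly6C- monocytes between 2142 and 2468 RPM. The transfer table is scaled to another total, so its heights are not to be set against those of the others.

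Libraries of the 7-week table held between 577690 and 3643327 reads, and those of the table with the ko mice between 942751 and 5478761, while the depth of the transfer table is unknown. RPM is a share of a library, so less RNA of a gene per cell, fewer cells of a type in a sort and more of other RNA cannot be told apart. In marrow Ly6C- and blood Ly6Cint libraries, genes held 6021429 to 6425217 and 5981863 to 6036118 of the total of 10000000 to which the deposited values appear to be scaled, and the median gene of all those tested was lower in them than in their Ly6C+ counterparts (median log2 difference -0.28 in marrow and -0.21 in blood). Counts of members called in the main fits are therefore set beside the share of all tested genes called. That share is not given for counts at an unadjusted p, with compared groups fitted alone or without a library. It is also missing for some counts by edgeR or after quantile scaling. Counts without it show no excess of members over all genes. Quantile scaling removes most of the shift. Values after it are given where it moves the split of all genes between higher and lower by over 0.1 of the calls. The labels do not say that replicates came from separate animals, so p-values measure the spread between these samples, which may be technical. The defining markers fitted the population labels: Ly6c2 averaged 122 RPM in marrow Ly6C- and 4192 RPM in marrow Ly6C+ cells, and Flt3 averaged 258 RPM in MDP.

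No member was called between cMoP and MDP. By limma's moderated test on log2(RPM + 1) with Benjamini-Hochberg adjustment, 0 of 41 members passed an adjusted p of 0.05 in either direction, where 5.2% of all tested genes were higher and 4.05% lower in cMoP. Without adjustment, 2 members were higher and 0 lower at a p under 0.05. By edgeR 0 members were called, where 7.02% of genes were higher and 5.99% lower. The log2 differences ran between -0.13 (Psma6) and 0.39 (Psma8, at a low level of 3.51 RPM in cMoP and 2.34 RPM in MDP). The median was 0.12 for the members, against -0.01 for all genes, and 34 of 41 members were above 0. After quantile scaling, however, the median was 0.02 for the members and -0.01 for all genes. Without the other populations in the fit, 6 members were called. Their direction and the share of all genes called in that fit are not given.

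In marrow Ly6C+ monocytes 17 of 41 members (41.5%) were lower than in cMoP and 0 were higher, where 22.4% of all tested genes were lower and 15.3% higher. Before adjustment 23 members were lower and 0 higher at a p under 0.05. By edgeR 12 of 41 members were lower and 1 was higher, where 18.9% of genes were lower and 20.9% higher. The median log2 difference was -0.49 for the members and -0.17 for all genes. The lower members lay mostly in the 19S cap: 5 of 6 ATPases, 2 of 3 base scaffold subunits and 4 of 8 lid subunits fell, against 2 of 7 alpha and 1 of 7 beta subunits of the core. A test of this difference between cap and core was not made. Without 1 of the marrow Ly6C+ libraries (replicate 1) the count was 11.

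Psmc1, an ATPase of the base, had 132, 145 and 134 RPM in marrow Ly6C+ monocytes, against 230, 242, 245 and 232 RPM in cMoP. The groups did not overlap, and the log2 difference was -0.79 ± 0.17 (SE, adjusted p = 0.000659). Psmd7, the lid subunit that pairs with the deubiquitinase, had 54, 74.2 and 75.4 RPM in marrow Ly6C+ monocytes, against 164, 142, 127 and 154 RPM in cMoP. All marrow Ly6C+ libraries lay below all cMoP libraries, with a log2 difference of -1.11 ± 0.22 (adjusted p = 0.000182). Psma5, an alpha subunit, averaged 93.5 RPM in marrow Ly6C+ and 198 RPM in cMoP (log2 difference -1.09 ± 0.19, adjusted p = 5.33e-05).

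The large scaffolds of the base also fell. Psmd1 averaged 101 RPM in marrow Ly6C+ monocytes and 154 RPM in cMoP (log2 difference -0.60 ± 0.16, adjusted p = 0.0033), and Psmd2 averaged 39.9 RPM in marrow Ly6C+ monocytes and 72.2 RPM in cMoP (-0.83 ± 0.24, adjusted p = 0.00718). Psmd4, the ubiquitin receptor of the base, did not pass the test and had 133 to 166 RPM in marrow Ly6C+ monocytes and 154 to 159 RPM in cMoP. Of the standard catalytic subunits, Psmb7, the trypsin-like one, averaged 75.6 RPM in marrow Ly6C+ monocytes and 111 RPM in cMoP (-0.56 ± 0.22, adjusted p = 0.0411), a call that was lost in 9 alternatives. Psmb5 and Psmb6, the chymotrypsin-like and caspase-like ones, were not called.

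Among the activators, Psme3 stood apart from the PA28 alpha subunit Psme1. Psme3, which encodes the nuclear PA28 gamma, had 47.1, 60.8 and 51.5 RPM in marrow Ly6C+ monocytes, against 124, 98.2, 119 and 130 RPM in cMoP. The libraries did not overlap and the log2 difference was -1.13 ± 0.23 (adjusted p = 0.000309). Psme1, which the interferon-inducible PA28 is built from, had 355 to 429 RPM in marrow Ly6C+ monocytes and 436 to 570 RPM in cMoP, and was not called.

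**Figure D2:**
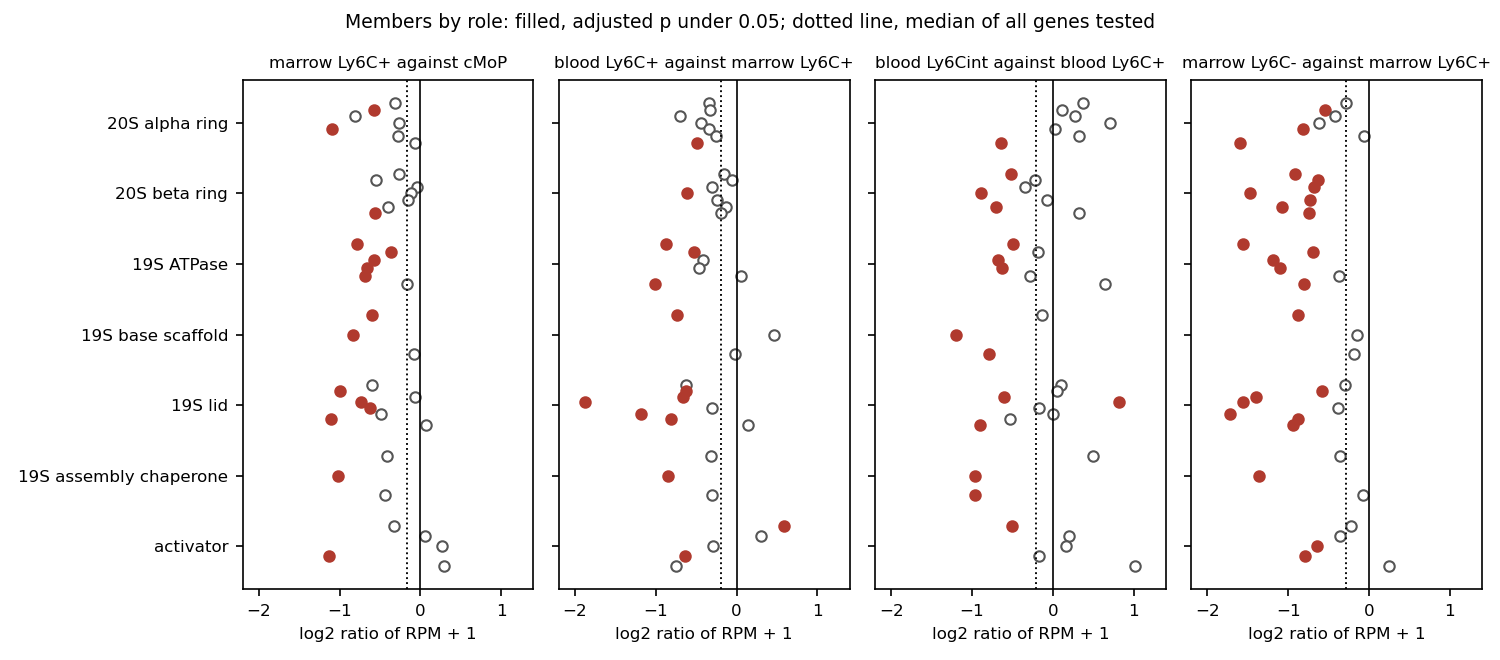
Log2 ratio of RPM + 1 (x axis) of each tested member, grouped by its role in the proteasome (y axis), for 4 comparisons of 7-week populations. Filled points passed an adjusted p of 0.05, and the dotted line is the median of all tested genes. In marrow Ly6C- against marrow Ly6C+ monocytes all 7 beta subunits are filled and lie left of 0.

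Blood Ly6C+ monocytes had lower levels of 14 of 41 members (34.1%) than marrow Ly6C+ monocytes, and a higher level of 1. Of all tested genes, 18.7% were lower and 7.32% higher. After quantile scaling 10 members were lower and 2 higher, where 12% of genes were lower and 12.8% higher. The median log2 difference was -0.42 for the members and -0.19 for all genes. The lower members were 5 of 8 lid subunits, 3 of 6 ATPases, 1 each of the alpha, beta and base scaffold subunits, the assembly chaperone Psmd5, Psme3 and Psmc3ip. Psme3 averaged 34.4 RPM in blood and 53.1 RPM in marrow Ly6C+ monocytes (-0.64 ± 0.23, adjusted p = 0.0434), and its call was lost in 9 alternatives. Of 25 cell cycle genes 0 were higher and 25 lower in blood Ly6C+ monocytes, and they summed to 114 to 439 RPM in blood and 3335 to 3934 RPM in marrow Ly6C+ libraries. Their part in the proteasome result was not tested.

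Psmd14, the metalloprotease of the lid that cuts the ubiquitin chain from a substrate, fell most among the 26S subunits. It had 54.1, 43.8, 24.7 and 18.5 RPM in blood Ly6C+ monocytes, against 108, 133 and 124 RPM in marrow Ly6C+ monocytes. The groups lay far apart, with a log2 difference of -1.88 ± 0.25 (adjusted p = 9.27e-07). Psmc1 had 84.5, 70.7, 82.8 and 61.5 RPM in blood Ly6C+ monocytes, against 132, 145 and 134 RPM in marrow Ly6C+ monocytes (log2 difference -0.88 ± 0.17, adjusted p = 0.000349), so that it was lower at both steps, out of the cMoP and out of the marrow. Psmd1 had 50.7 to 82.1 RPM in blood and 92.6 to 109 RPM in marrow Ly6C+ monocytes (-0.74 ± 0.16, adjusted p = 0.000803).

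The single member that rose in blood Ly6C+ monocytes was Psme1. It had 500, 591, 609 and 634 RPM in blood Ly6C+ monocytes, against 377, 429 and 355 RPM in marrow Ly6C+ monocytes. All blood libraries lay above all marrow libraries (log2 difference 0.59 ± 0.14, adjusted p = 0.00288). Its exons overlap Emc9 on the opposite strand in the GENCODE annotation, and the sources do not say whether reads were counted by strand, so reads from the 2 genes may be mixed. Its partner Psme2 has a near-identical copy, Psme2b, and how reads were split between them is uncertain. In the 7-week groups Psme2b averaged 280 to 439 RPM, and it had the narrowest range of group means of all tested members (0.64 on the log2 scale).

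In blood Ly6Cint monocytes 14 of 41 members (34.1%) were lower and 1 was higher than in blood Ly6C+ monocytes, where 19.2% of genes were lower and 7.95% higher. The median log2 difference was -0.17 for the members and -0.21 for all genes, and 17 members were above 0. The direction of the members' median turned with the scaling, at 0.05 after quantile scaling and 0.04 by edgeR, against -0.05 and -0.03 for all genes. After quantile scaling 9 members were lower and 2 higher, where 11.9% of genes were lower and 10.5% higher. By edgeR 6 members were lower and 1 was higher, where 8.99% of genes were lower and 8.38% higher. With the 2 groups fitted alone 1 member was called.

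The members that fell were spread over the roles, with 2 of 3 base scaffold subunits, 2 of 3 assembly chaperones, 3 of 6 ATPases and 3 of 7 beta subunits among them. Psmd4 had 73.5, 82.9 and 96.1 RPM in blood Ly6Cint monocytes, against 157, 165, 157 and 109 RPM in blood Ly6C+ monocytes. The groups did not overlap (log2 difference -0.79 ± 0.16, adjusted p = 0.000699). Psmd2 had 26.7, 24.3 and 20.2 RPM in Ly6Cint and 42.5, 38.4, 88.9 and 64 RPM in Ly6C+ monocytes, again without overlap (-1.20 ± 0.24, adjusted p = 0.000643). The lid subunit Psmd8 averaged 128 RPM in Ly6Cint and 241 RPM in Ly6C+ monocytes (-0.90 ± 0.17, adjusted p = 0.00023). The beta subunit Psmb4 averaged 152 RPM in Ly6Cint and 291 RPM in Ly6C+ monocytes (-0.89 ± 0.19, adjusted p = 0.00135). Psmb6 averaged 136 RPM in Ly6Cint and 223 RPM in Ly6C+ monocytes (-0.71 ± 0.17, adjusted p = 0.00304) and Psme1 averaged 411 RPM in Ly6Cint and 584 RPM in Ly6C+ monocytes (-0.50 ± 0.14, adjusted p = 0.0117). The calls of Psmb6 and Psme1 were lost with edgeR and with quantile scaling, where their direction was kept.

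Psmd14 went the other way. It had 71.8, 61.7 and 43.2 RPM in blood Ly6Cint and 54.1, 43.8, 24.7 and 18.5 RPM in blood Ly6C+ monocytes, which overlapped (log2 difference 0.81 ± 0.25, adjusted p = 0.0153). This call was lost without either of 2 Ly6Cint libraries (replicates 1 and 2) or either of 2 Ly6C+ libraries (replicates 3 and 4), at an adjusted p of up to 0.23 over all alternatives.

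In blood Ly6C- monocytes 5 of 41 members were higher than in Ly6Cint monocytes (12.2%) and 0 were lower, where 7.25% of genes were higher and 1.62% lower. Unadjusted, 11 members were higher and 1 lower at a p under 0.05. By edgeR 2 were higher and 0 lower, where 2.08% of genes were higher and 1.38% lower. After quantile scaling 2 were higher and 0 lower, where 2.77% of genes were higher and 2.51% lower, and the members' median turned to -0.06 against 0.13 as first scaled. With the 2 groups fitted alone 0 members were called, at an adjusted p of 0.153 for Psmd4 and 0.163 for Psmd5. The 5 called with all groups in the fit were Psmd2, Psmd4, Psmd5, Psmd7 and Psmd9. Psmd4 had 124, 149 and 181 RPM in Ly6C- monocytes, against 73.5, 82.9 and 96.1 RPM in Ly6Cint monocytes, without overlap (log2 difference 0.83 ± 0.17, adjusted p = 0.00407). Psmd5, an assembly chaperone of the base, had 17.4, 21.2 and 20.7 RPM in Ly6C- and 6.68, 10.1 and 8.35 RPM in Ly6Cint monocytes (1.16 ± 0.26, adjusted p = 0.00666). The Ly6C- values overlapped those of blood Ly6C+ monocytes, where Psmd4 had 109 to 165 RPM and Psmd5 had 12.6 to 24.6 RPM. The count was 10 without the first Ly6C- library, 2 without the second, and 3 without the third or without either of Ly6Cint replicates 2 and 3.

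Set directly against blood Ly6C+ monocytes, Ly6C- monocytes had 2 members higher (4.88%) and 5 lower (12.2%), where 9.86% of genes were higher and 10.5% lower. The core subunits Psma7, Psmb1 and Psmb6, the lid subunit Psmd8 and Psme1 fell. Psma7, an alpha subunit, had 274, 323 and 354 RPM in Ly6C- and 647, 617, 512 and 467 RPM in Ly6C+ monocytes, without overlap (log2 difference -0.82 ± 0.14, adjusted p = 6.39e-05). The lid subunits Psmd14 and Psmd11 rose. Psmd14 had 63.1, 89.3 and 57.4 RPM in Ly6C- monocytes, above all Ly6C+ libraries (1.06 ± 0.25, adjusted p = 0.00222). The count was 4 without Ly6C- replicate 1 or Ly6C+ replicate 3, and 1 with the 2 groups fitted alone.

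**Figure D3:**
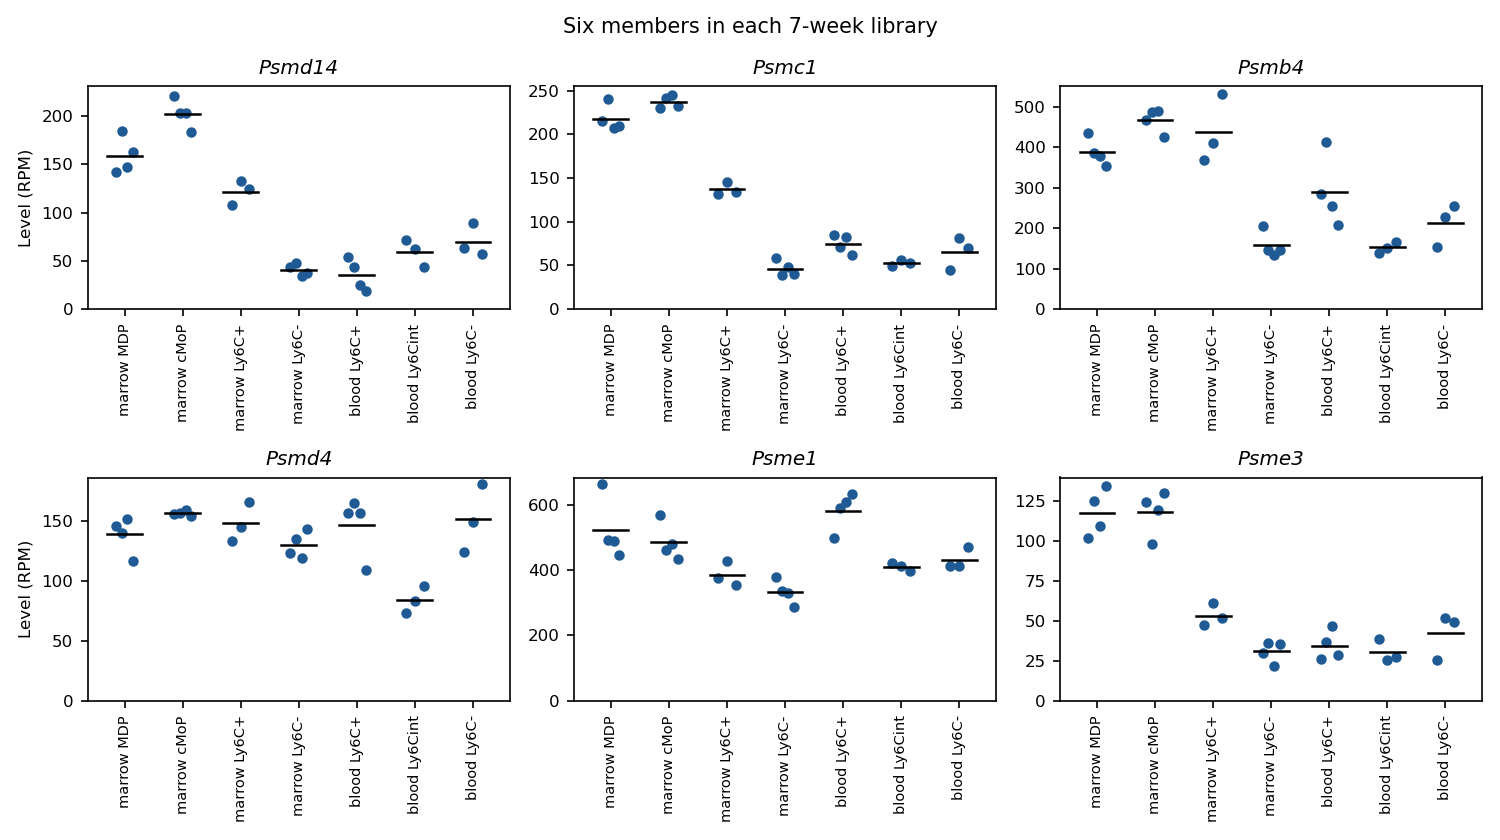
Level in RPM (y axis) of Psmd14, Psmc1, Psmb4, Psmd4, Psme1 and Psme3 in each 7-week library (points) by population (x axis), with the group mean as a bar. Psmd14 lies between 183 and 221 RPM in cMoP and between 18.5 and 54.1 RPM in blood Ly6C+ monocytes, while Psme1 is higher in blood than in marrow Ly6C+ monocytes.

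In the marrow, Ly6C- monocytes had lower levels of 26 of 41 members (63.4%) than Ly6C+ monocytes, and 0 were higher. Of all tested genes, 29.1% were lower and 11% higher. There were 27 lower and 0 higher at an unadjusted p under 0.05. The median log2 difference was -0.70 for the members and -0.28 for all genes. After quantile scaling 18 members were lower and 0 higher, where 19.4% of genes were lower and 17.8% higher. By edgeR 16 members were lower and 0 higher, where 18.5% of genes were lower and 16.5% higher. All 7 beta subunits fell, with 5 of 6 ATPases, 6 of 8 lid subunits, 3 of 7 alpha subunits, 1 of 3 base scaffold subunits, Psmd5, Psme2b, Psme3 and Psmc3ip.

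The core fell by the widest margin in Psma7, which had 266, 258, 221 and 291 RPM in marrow Ly6C- monocytes, against 839, 740 and 775 RPM in marrow Ly6C+ monocytes (log2 difference -1.60 ± 0.14, adjusted p = 2.1e-10). Psmb4 had 206, 147, 134 and 145 RPM in Ly6C- and 370, 410 and 532 RPM in Ly6C+ monocytes (-1.47 ± 0.19, adjusted p = 4.48e-07). Neither gene's groups overlapped. In the cap, Psmc1 had 58.2, 38.5, 48.6 and 40 RPM in Ly6C- and 132, 145 and 134 RPM in Ly6C+ monocytes (-1.56 ± 0.17, adjusted p = 2.49e-08). The lid subunit Psmd13 had 64.7, 77.8, 63.8 and 57.8 RPM in Ly6C- and 171, 167 and 187 RPM in Ly6C+ monocytes (-1.40 ± 0.16, adjusted p = 5.98e-08). Both were lower in every Ly6C- library, although Psmd13 shares exon sequence with Sirt3 on the opposite strand. Psmd14 averaged 40.7 RPM in Ly6C- and 122 RPM in Ly6C+ monocytes (-1.56 ± 0.25, adjusted p = 7.66e-06).

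The standard catalytic subunits also fell. Psmb6 had 128, 105, 107 and 118 RPM in marrow Ly6C- and 208, 240 and 284 RPM in marrow Ly6C+ monocytes, without overlap (-1.08 ± 0.17, adjusted p = 7.7e-06). Psmb5 averaged 57.1 RPM in Ly6C- and 91.2 RPM in Ly6C+ monocytes (-0.72 ± 0.20, adjusted p = 0.00491) and Psmb7 averaged 46.4 RPM in Ly6C- and 75.6 RPM in Ly6C+ monocytes (-0.74 ± 0.22, adjusted p = 0.00691). The calls of Psmb5 and Psmb7 were lost with edgeR and with quantile scaling, and that of Psmb7 also without marrow Ly6C+ replicate 3. The ubiquitin receptor Psmd4 (119 to 143 RPM in Ly6C- and 133 to 166 RPM in Ly6C+ monocytes) and the scaffold Psmd2 were not called. Erythroid marker genes moved with this comparison: 6 of them summed to 717 to 1850 RPM in marrow Ly6C- libraries and 3.86 to 180 RPM in marrow Ly6C+ libraries, with Car1 at 0 in the Ly6C- libraries, and their part in the result was not tested. The 25 cell cycle genes summed to 259 to 341 RPM in marrow Ly6C- and 3335 to 3934 RPM in marrow Ly6C+ libraries, and their part was not tested either.

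The difference between Ly6C- and Ly6C+ cells was larger in marrow than in blood for many members. In the test of that interaction 16 of 41 members (39%) had a lower value in marrow and 0 a higher one, where 14.3% of genes were lower and 3.53% higher. After quantile scaling it was 10 lower and 0 higher, where 8.52% of genes were lower and 7.41% higher. By edgeR it was 6 lower and 0 higher, where 7.03% of genes were lower and 5.6% higher. Psmd14 had the smallest p, with a log2 difference of -2.63 ± 0.35 between the 2 tissues (adjusted p = 4.77e-06), since it was lower in Ly6C- cells in the marrow and higher in Ly6C- cells in the blood. The ATPase Psmc1 (-1.33 ± 0.25, adjusted p = 0.000298) and the scaffold Psmd1 (-1.01 ± 0.22, adjusted p = 0.00197) were also called. Psmc3ip, the recombination protein, had the lowest value, -2.83.

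Between blood and marrow Ly6C- monocytes 0 of 41 members were called, where 1.94% of genes were higher and 0.598% lower in blood. At an unadjusted p under 0.05, 16 members were higher in blood and 0 lower. The share of all genes at that unadjusted threshold is not given. By edgeR 0 members were called, where 1.52% of genes were higher and 0.633% lower. The median log2 difference was 0.34 for the members and 0.07 for all genes, and the count was 3 without the first blood Ly6C- library. After quantile scaling 0 members were called, where 1.36% of genes were higher and 0.791% lower, with medians of 0.20 for the members and 0.00 for all genes. The 25 cell cycle genes summed to 245 to 340 RPM in blood and 259 to 341 RPM in marrow Ly6C- libraries.

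The drop out of the cMoP was measured again in 8-week marrow. The 26S sum was 5107 ± 146 RPM in MDP, 5391 ± 98.4 RPM in cMoP and 4575 ± 30.2 RPM in Ly6C+ monocytes (SD, n = 2 each). Unlike at 7 weeks, 17 of the 31 subunits had their highest mean in MDP and 9 in cMoP, over the 8-week and 16-week groups. In Ly6C+ monocytes 7 of 40 members were lower than in cMoP (17.5%) and 1 was higher, where 20.5% of genes were lower and 16.3% higher, so the share of members called was near that of all genes. Of the 17 members lower at 7 weeks, 16 were below 0 at 8 weeks, the exception being Psmd14, where 29 of all 40 members were below 0. At both ages 5 members were called lower (Psmd1, Psmd3, Psmd7, Psme3 and the recombination protein Psmc3ip). That is 5 of 17 called at 7 weeks and 5 of 7 called at 8 weeks.

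Psme3 had 59.5 and 59.1 RPM in 8-week Ly6C+ monocytes, against 119 and 149 RPM in 8-week cMoP. The log2 difference, -1.15 ± 0.23 (adjusted p = 0.00151), was close to the 7-week one. Psmd1 had 111 and 99.1 RPM in Ly6C+ and 191 and 181 RPM in cMoP (-0.82 ± 0.18, adjusted p = 0.00239), and Psmd7 had 84.7 and 90.8 RPM in Ly6C+ and 141 and 172 RPM in cMoP (-0.82 ± 0.19, adjusted p = 0.00321). None of these groups overlapped. The alpha subunit Psma3 had 8.59 and 9.99 RPM in Ly6C+ and 26.3 and 33.1 RPM in cMoP (-1.57 ± 0.27, adjusted p = 0.000401).

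Psme4, which encodes the activator PA200, was the member that was higher at 8 weeks, with 36.2 and 54.1 RPM in Ly6C+ and 3.94 and 26.9 RPM in cMoP (1.95 ± 0.67, adjusted p = 0.034), and that call was lost in 6 alternatives, among them leaving out cMoP replicate 1 or either Ly6C+ library. The count of 8 members was 5 without Ly6C+ replicate 2. Neutrophil markers summed to 432 to 441 RPM in the 8-week Ly6C+ and 3126 to 3842 RPM in the 8-week cMoP libraries, and erythroid markers to 3400 to 4602 RPM in Ly6C+ and 309 to 548 RPM in cMoP libraries, with no marker of either list at 0, and their part was not tested. Between 8-week cMoP and MDP 0 of 40 members were called, where 1.83% of genes were higher and 3.02% lower. The median log2 difference was -0.05 for the members and -0.18 for all genes, and 27 members were below 0. At an unadjusted p under 0.05, 3 were higher and 1 lower, edgeR called 0, and 1 member was called without cMoP replicate 2. After quantile scaling 1 was higher and 0 lower, where 3.28% of genes were higher and 2.34% lower.

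The 16-week blood monocytes compare ko with wt mice, in a study whose title names C/EBPb. Cebpb, which encodes the transcription factor C/EBPb, had 115 and 57.2 RPM in ko Ly6C+ monocytes, against 804 and 693 RPM in wt Ly6C+ monocytes. In Ly6Cint monocytes it had 186 and 67.1 RPM in ko and 1734 and 1242 RPM in wt mice. The ko libraries lay below all wt libraries of either population (log2 difference -3.19 ± 0.38, adjusted p = 0.000551, in Ly6C+ and -3.70 ± 0.38, adjusted p = 4.82e-05, in Ly6Cint).

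No proteasome member was called between ko and wt monocytes. In Ly6C+ cells 0 of 40 passed, where 0.799% of genes were higher and 0.465% lower in ko. At an unadjusted p under 0.05 there were 0 members in either direction, and edgeR called 0. The differences ran between -0.79 (Psma4) and 0.52 (Psme4), with a median of 0.07 against 0.02 for all genes, and of -0.02 for both by edgeR. In Ly6Cint cells 0 of 40 passed, where 3.63% of genes were higher and 2.7% lower. There, 2 members were higher and 0 lower at an unadjusted p under 0.05, edgeR called 0, and the differences ran between -0.38 (Psmd9) and 0.81 (Psme4), with a median of 0.17 against 0.07. Quantile scaling, or leaving out wt Ly6Cint replicate 2, called 1 member.

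The summed 26S level was 3729 ± 217 RPM in ko and 3620 ± 112 RPM in wt Ly6C+ monocytes, which overlapped. In Ly6Cint monocytes it was 3798 ± 105 RPM in ko and 3270 ± 146 RPM in wt mice, and the 2 libraries of each did not overlap (3724 and 3873 RPM in ko, 3167 and 3373 RPM in wt). Psmd14 had 74.2 and 59.9 RPM in ko and 29.7 and 84 RPM in wt Ly6Cint monocytes (0.41 ± 0.41, adjusted p = 0.682). Psmb5 had 84 and 65.2 RPM in ko and 71.7 and 67.7 RPM in wt Ly6Cint monocytes (0.09 ± 0.27, adjusted p = 0.924). The median standard error of a member was 0.25 on the log2 scale, so changes of that order could not be detected with 2 libraries a group. In simulated data at this size, 68 of 100 genes changed 2-fold and all 100 genes changed 4-fold were recovered between ko and wt Ly6C+ cells. In the same data 6 unchanged genes were called. The simulation gave every gene the same set spread and changed only genes above a set level. Its shares need not hold for low members or those with a wider spread, such as Psma4 with 9.37 and 40.1 RPM in wt Ly6Cint libraries.

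The Ly6Cint step showed no called member in the 16-week mice. In wt mice 0 of 40 members differed between Ly6Cint and Ly6C+ monocytes, where 2.1% of genes were higher and 2.2% lower. At an unadjusted p under 0.05, 0 were higher and 2 lower, edgeR called 0, and 2 were called without wt Ly6Cint replicate 2. In ko mice it was 0 of 40, where 0.79% of genes were higher and 0.852% lower, with 0 higher and 1 lower at an unadjusted p under 0.05, and edgeR called 0. For wt Ly6C- against Ly6Cint monocytes it was 0 of 40, where 0.0878% of genes were higher and 0.36% lower, again with 0 higher and 1 lower unadjusted and 0 by edgeR. For the difference of the Ly6Cint step between ko and wt mice it was 0 of 40, where 0.00878% of genes were higher and 0% lower, with 2 higher and 0 lower unadjusted and 0 by edgeR.

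Of the 14 members lower in 7-week Ly6Cint monocytes, 8 were below 0 in the 16-week wt mice, where 25 of all 40 members were below 0. Psmd4, which fell at 7 weeks, had 192 and 159 RPM in 16-week wt Ly6Cint and 150 and 159 RPM in wt Ly6C+ monocytes (0.18 ± 0.16, adjusted p = 0.684). Psmd2 had 67 and 35.9 RPM in Ly6Cint and 40.5 and 48.1 RPM in Ly6C+ monocytes of the same mice (0.15 ± 0.31, adjusted p = 0.889). Both sets of libraries touched or overlapped. Psmd2 is listed under different transcripts for the 7-week and 16-week mice, as are Psma3 and Psme2, which may affect such comparisons. All 5 members that were higher in 7-week Ly6C- than Ly6Cint monocytes were above 0 in the 16-week wt mice, with 0 of them called. Of all 40 members, 23 were above 0 in that comparison, and the median of all genes was 0.09.

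Marrow Ly6C+ monocytes before transfer had the highest 26S sum of the transfer table, 6377 ± 342 RPM (SD, n = 2). The grafts had 4875 ± 212, 4381 ± 9.37 and 4385 ± 244 RPM in blood at 24, 36 and 48 h, and 4837 ± 444, 4546 ± 164 and 4290 ± 102 RPM in spleen (n = 2 each). All 12 graft libraries lay below both libraries taken before transfer. Levels of this table are not set against those of the others, which were scaled separately.

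In the 24 h blood grafts 4 of 40 members were lower than before transfer (10%) and 0 were higher, where 10.3% of genes were lower and 2.98% higher. At an unadjusted p under 0.05, 12 were lower and 0 higher. The median log2 difference was -0.48 for the members and -0.53 for all genes. After quantile scaling 3 members were lower and 0 higher, where 5.12% of genes were lower and 4.23% higher, with medians of -0.37 for the members and 0.03 for all genes, so whether the members differed from all genes depended on the scaling. In the 24 h spleen grafts 6 of 40 were lower (15%) and 0 higher, where 2.91% of genes were lower and 2.89% higher, with 14 lower and 0 higher at an unadjusted p under 0.05 and medians of -0.36 for the members and -0.21 for all genes. The spleen count was 0 without either library taken before transfer, 3 and 1 without the one or the other spleen library, and 0 with the 2 groups fitted alone. The blood count was 1 and 2 without the one or the other library taken before transfer. The 2 comparisons share the cells taken before transfer, and the members called lower in each include the recombination protein Psmc3ip.

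Psmb4 was lower in both organs. It had 403 and 368 RPM in 24 h blood grafts, 277 and 400 RPM in 24 h spleen grafts and 632 and 582 RPM before transfer. The grafts did not reach the level before transfer (log2 difference -0.65 ± 0.20, adjusted p = 0.0331, in blood and -0.86 ± 0.20, adjusted p = 0.0095, in spleen), and both calls were lost without either library taken before transfer. In the spleen, the ATPase Psmc3 had 158 and 99 RPM in grafts and 278 and 252 RPM before transfer (-1.08 ± 0.25, adjusted p = 0.0106), and Psmb6 had 227 and 196 RPM in grafts and 366 and 404 RPM before transfer (-0.86 ± 0.22, adjusted p = 0.0218). Psmc3 and Psmb6 also lost their calls without either library taken before transfer.

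Psmd1, the large scaffold of the base, was the member that changed most in the blood grafts. It had 20.2 and 9.2 RPM in the 24 h blood grafts, against 174 and 141 RPM before transfer (log2 difference -3.42 ± 0.34, adjusted p = 5.34e-07). No other group of the table came near that low: it had 110 and 80.6 RPM in the 24 h spleen grafts, 112 and 78.5 RPM in the 36 h blood grafts and 69.2 and 92.9 RPM in the 48 h blood grafts. The 48 h blood grafts were above the 24 h ones (2.47 ± 0.34, adjusted p = 0.000201). Its exons overlap Htr2b on the opposite strand and a second annotated gene on its own strand.

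Between 48 and 24 h, 2 of 40 members rose in the blood grafts (5%) and 4 fell (10%), where 4.42% of genes were higher and 3.67% lower. Psma1, an alpha subunit, had 361 and 200 RPM at 48 h, against 82.8 and 98.2 RPM at 24 h (1.56 ± 0.32, adjusted p = 0.00393). Psma3, another alpha subunit, had 10.5 and 0 RPM at 48 h and 69.2 and 24.1 RPM at 24 h (-3.63 ± 0.83, adjusted p = 0.00918), a value that rests on few reads. Psmd7 had 46.5 and 48.2 RPM at 48 h and 111 and 114 RPM at 24 h (-1.23 ± 0.29, adjusted p = 0.0108). Replicates of these blood grafts correlated at 0.88 at 24 h and 0.89 at 48 h, against 0.99 before transfer. Genes above 0 numbered 7734 to 8761 in these libraries and 11574 to 11719 before transfer. Of the 40 members, 4 lay higher and 10 lower at 48 h without overlap, which pairs of libraries can do by chance. The share of all genes without overlap was not taken. The 2 higher and 4 lower members called thus include subunits of one particle with opposite signs. The count was 10 without 1 of the 48 h libraries (replicate AC) and 0 with the 2 groups fitted alone. In the spleen grafts 0 of 40 members were called between 48 and 24 h, where 0.314% of genes were higher and 2.1% lower, with 1 higher and 4 lower at an unadjusted p under 0.05. After quantile scaling 0 were called, where 0.446% of genes were higher and 1.1% lower, and 2 were called without 1 of the 48 h libraries (replicate C).

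Beside these results, 6 erythroid markers summed to 942 to 7783 RPM over the blood grafts and 13.6 to 25 RPM before transfer, with Car1 and Klf1 at 0 in the libraries taken before transfer and in the blood grafts of 24 and 48 h. The sum was 71.9 to 331 RPM in the 24 h spleen grafts. Its part in the graft results was not tested.

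**Figure D4:**
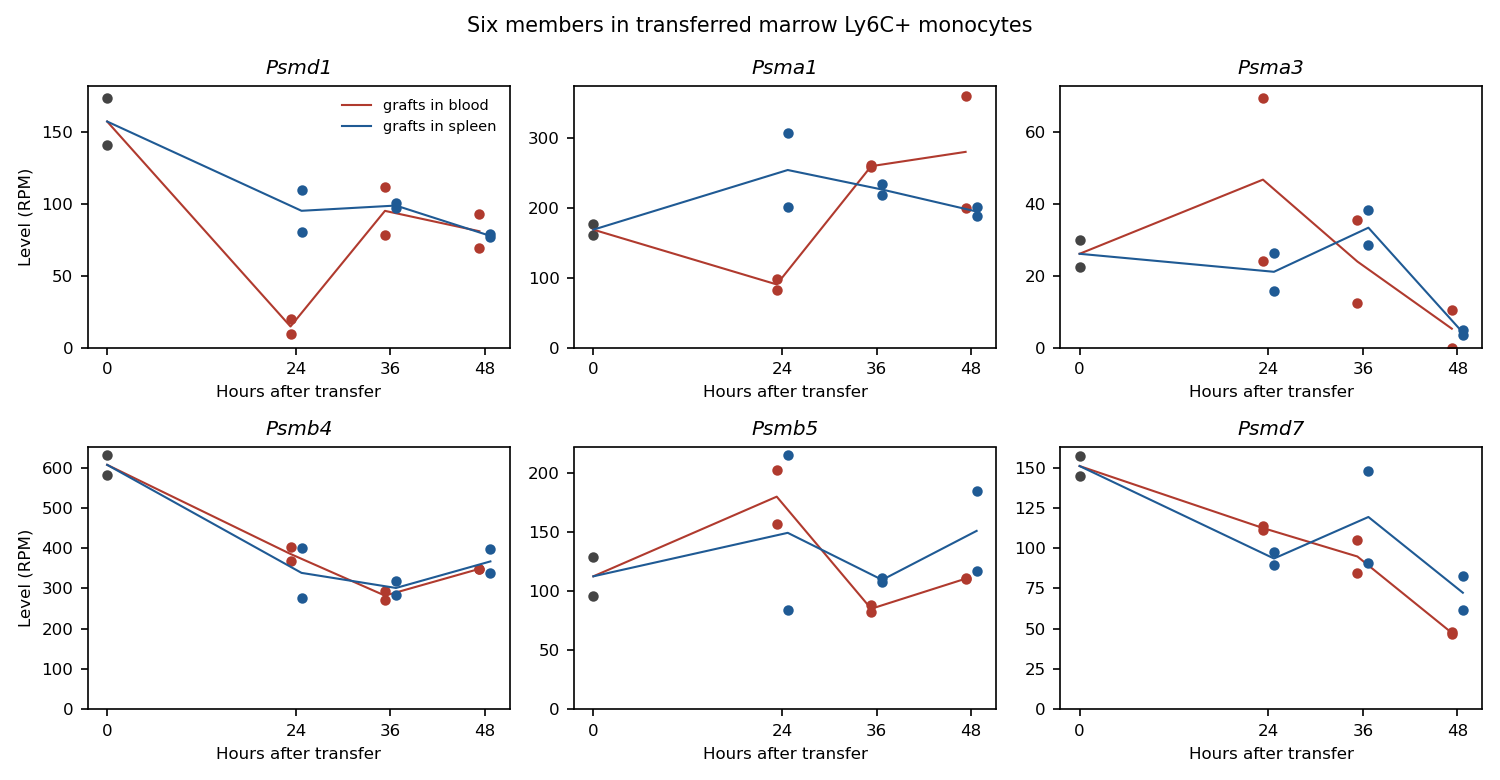
Level in RPM (y axis) of Psmd1, Psma1, Psma3, Psmb4, Psmb5 and Psmd7 in transferred marrow Ly6C+ monocytes by hours after transfer (x axis), with a point per library and a line through the group means for blood and for spleen. Psmd1 falls to 20.2 and 9.2 RPM in blood at 24 h, against 174 and 141 RPM before transfer, and is at 110 and 80.6 RPM in spleen at that time.

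In the host monocytes of the same mice the 26S sum was 4691 ± 150, 4078 ± 378 and 3910 ± 2.58 RPM in blood Ly6C+, Ly6Cint and Ly6C- cells, and 4471 ± 62.5, 4340 ± 173 and 3639 ± 181 RPM in spleen (n = 2 each). Ly6C- cells had the lowest mean in both organs, although 1 blood Ly6Cint library, at 3811 RPM, lay below both blood Ly6C- libraries. No member was called: for blood Ly6Cint against Ly6C+ it was 0 of 40, where 0.744% of genes were higher and 0.413% lower, with 0 higher and 3 lower at an unadjusted p under 0.05. For blood Ly6C- against Ly6Cint it was 0 of 40, where 0.00827% of genes were higher and 0.0992% lower, with 0 higher and 1 lower unadjusted. For spleen Ly6Cint against Ly6C+ it was 0 of 40, where 0.446% of genes were higher and 0.116% lower, with 0 higher and 1 lower unadjusted. For spleen Ly6C- against Ly6Cint it was 0 of 40, where 0.0661% of genes were higher and 0.149% lower, with 0 higher and 2 lower unadjusted. For the difference of the Ly6Cint step between spleen and blood it was 0 of 40, where 0.00827% of genes were higher and 0% lower, with 0 members in either direction unadjusted. The test was limma throughout, and the share of all genes called was under 1% in each of these comparisons.

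Psma7 followed the 7-week pattern by its values, with 439 and 411 RPM in host blood Ly6C- cells, 519 and 484 RPM in Ly6Cint cells and 783 and 795 RPM in Ly6C+ cells. Of the 14 members lower in 7-week blood Ly6Cint monocytes, 9 were below 0 in the host blood, where 26 of all 40 members were below 0. Psmd14, by contrast, had 73.2 and 82.8 RPM in host blood Ly6C- cells and 105 and 91.6 RPM in Ly6C+ cells, so the order seen at 7 weeks in blood, with Ly6C- above Ly6C+, was not repeated.

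Members differed widely in how much they varied. Over the 7-week populations the range between the highest and lowest group mean had a median of 1.30 on the log2 scale for the 41 tested members, against 1.63 for all tested genes. Psma6, an alpha subunit, had a range of 0.66. Psmd14 had 2.61, Psmd5 had 2.83 and Psmc3ip, the recombination protein, had 5.11, with 58.5 to 76.7 RPM in cMoP and 0 to 2.09 RPM in blood Ly6Cint monocytes. In the transfer table the widest ranges were 3.42 for Psmd1, 3.63 for Psma3 and 3.71 for the assembly chaperone Psmd10.

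The standard catalytic subunits Psmb5, Psmb6 and Psmb7 varied more over the 7-week populations than their immune counterparts, which were left out of the members: their summed group means ran from 247 to 614 RPM per kilobase, and those of Psmb8, Psmb9 and Psmb10 from 656 to 915. Psmb8, Psmb9 and Psmb10 over Psmb5, Psmb6 and Psmb7, in RPM per kilobase of gene length within a library, gave 1.58 ± 0.0766 in MDP, 1.26 ± 0.0283 in cMoP, 1.65 ± 0.126 in marrow Ly6C+, 2.18 ± 0.313 in blood Ly6C+, 2.46 ± 0.334 in blood Ly6Cint and 2.44 ± 0.334 in blood Ly6C- cells, and 2.69 ± 0.356 in marrow Ly6C- cells (SD, n = 3 or 4). All cMoP libraries (1.22 to 1.28) lay below all MDP libraries (1.5 to 1.67), and all marrow Ly6C- libraries (2.39 to 3.18) above all marrow Ly6C+ libraries (1.56 to 1.79). The labels link to a protocol that is known to count transcript ends, for which length matters little. Without division by length the ratios were 2.71, 2.14, 2.78, 3.67, 4.03, 4.1 and 4.51, with cMoP again lowest and marrow Ly6C- cells highest. At 8 weeks cMoP were again lowest, at 1.43 and 1.46, with MDP at 1.74 and 1.82.

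In the 16-week mice the ratio was 2.07 ± 0.225 in ko and 1.93 ± 0.102 in wt Ly6C+ monocytes, and 2.53 ± 0.144 in ko and 2.35 ± 0.121 in wt Ly6Cint monocytes, with overlap in each pair. In grafts it was 1.93 ± 0.0362 before transfer, 2.01, 2.86 and 2.15 in blood and 2.09, 2.77 and 2.91 in spleen at 24, 36 and 48 h. Of the immune subunits themselves, Psmb8 was lower in cMoP than MDP (-0.37 ± 0.12, adjusted p = 0.0487), and Psmb10 was lower in blood Ly6Cint than Ly6C+ (-0.51 ± 0.15, adjusted p = 0.0118), in blood Ly6C- than Ly6C+ (-0.57 ± 0.15, adjusted p = 0.0061) and in marrow Ly6C- than Ly6C+ monocytes (-0.37 ± 0.15, adjusted p = 0.0481).

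**Figure D5:**
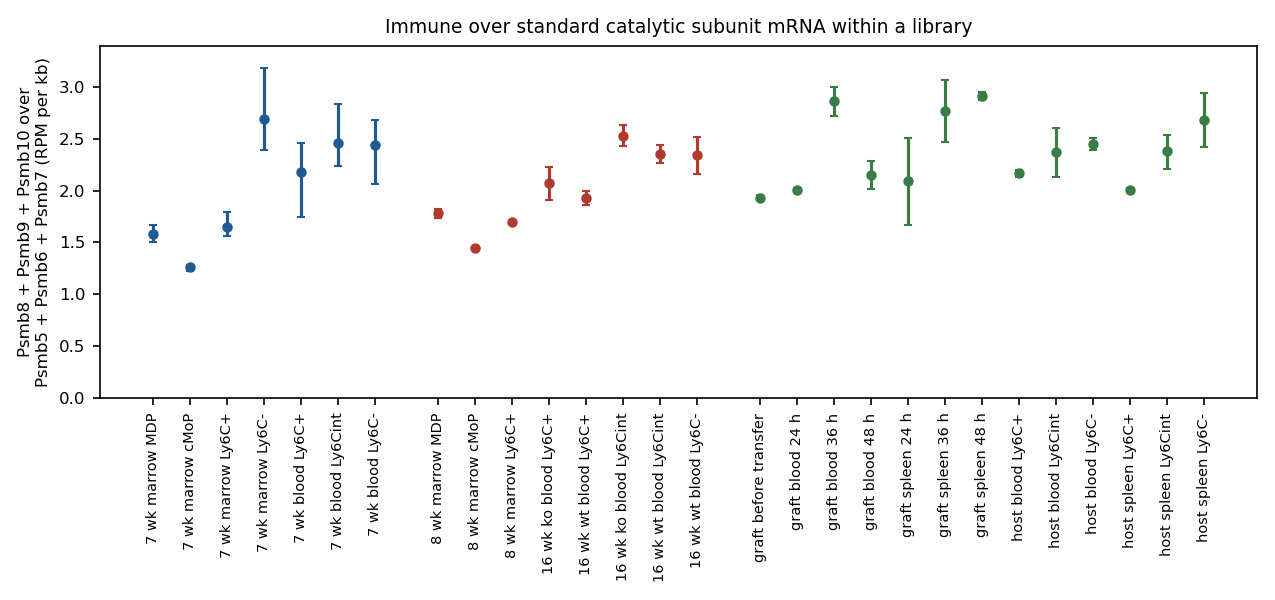
Summed level of the immune catalytic subunits over that of the standard ones, in RPM per kilobase (y axis), by population (x axis), with the mean as a point and the lowest and highest library as the bar, for the 3 tables. The ratio is 1.26 in 7-week cMoP and 2.69 in 7-week marrow Ly6C- monocytes.

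Genes that work with the proteasome were counted in the same comparisons. Of 19 tested assembly and associated factors, 0 were higher and 9 lower in marrow Ly6C+ monocytes than in cMoP, where 15.3% of all genes were higher and 22.4% lower. It was 1 higher and 7 lower in blood against marrow Ly6C+ monocytes, where 7.32% of all genes were higher and 18.7% lower, and 1 higher and 9 lower in marrow Ly6C- against Ly6C+ monocytes, where 11% were higher and 29.1% lower. The core assembly chaperone Psmg1 fell by 1.72 ± 0.30 out of the cMoP (log2, adjusted p = 3.58e-05) and its partner Psmg3 by 0.96 ± 0.18 (adjusted p = 0.000106). Both fell at 8 weeks as well, Psmg1 by 2.16 ± 0.33 (adjusted p = 0.000171) and Psmg3 by 0.88 ± 0.23 (adjusted p = 0.00835). Out of the marrow, the proteasome-bound deubiquitinases Uchl5 (-1.92 ± 0.36, adjusted p = 0.000186) and Usp14 (-1.53 ± 0.29, adjusted p = 0.000217) and the thioredoxin Txnl1 (-1.45 ± 0.27, adjusted p = 0.000127) fell, and Pomp, the maturation factor of the core, rose (0.45 ± 0.16, adjusted p = 0.0383).

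Of 12 ubiquitin genes, 0 were higher and 7 lower in marrow Ly6C- than Ly6C+ monocytes, where 11% of all genes were higher and 29.1% lower. In that comparison, of 12 genes of p97, the ATPase that hands substrates to the proteasome, and its cofactors, 0 were higher and 3 lower, a share near that of all genes, among them Vcp itself (-0.92 ± 0.19, adjusted p = 0.00026). Of 19 cytosolic chaperones 0 were higher and 12 lower. Out of the cMoP 2 chaperones rose and 15 fell, where 15.3% of all genes were higher and 22.4% lower, with Cct6a at -1.77 ± 0.17 (adjusted p = 1.49e-09).

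Of 10 tested regulators that act on antioxidant elements, 3 rose and 2 fell in marrow Ly6C- against Ly6C+ monocytes, where 11% of all genes were higher and 29.1% lower. Nfe2l2, which encodes Nrf2, rose by 1.21 ± 0.19 (adjusted p = 5.79e-06) and Keap1, its inhibitor, was at -1.16 ± 0.19 (adjusted p = 1.8e-05). In the blood, Nfe2l2 was also higher in Ly6Cint than Ly6C+ monocytes (1.43 ± 0.19, adjusted p = 3.29e-06). In the marrow, the 5 members whose windows hold the antioxidant letters had lower means in Ly6C- than Ly6C+ monocytes. Of all 41 members tested, 40 had a log2 difference below 0 there, so this does not set the 5 apart. The means were 57.1 against 91.2 RPM for Psmb5, 114 against 244 RPM for Psmb6 and 43.8 against 77.2 RPM for Psmc6. For Psmd12 they were 43.4 against 63.7 RPM, and for Psmd9 22.5 against 23.7 RPM. A link with Nfe2l2 was not tested. In blood Ly6Cint against Ly6C+ monocytes, Psmb6 and Psmd9 alone of the 5 were called. Psmb6 averaged 136 RPM in Ly6Cint and 223 RPM in Ly6C+ monocytes and Psmd9 averaged 9.37 RPM in Ly6Cint and 19.1 RPM in Ly6C+ monocytes, and both fell. Psmb5 averaged 73.6 RPM in Ly6Cint and 77.7 RPM in Ly6C+, Psmc6 averaged 58.6 RPM in Ly6Cint and 40.6 RPM in Ly6C+ and Psmd12 averaged 43.7 RPM in Ly6Cint and 42.5 RPM in Ly6C+ monocytes, and none of these 3 was called. Interferon response genes rose out of the cMoP (20 of 25 higher and 0 lower, where 15.3% of all genes were higher) and out of the marrow (13 of 25 higher and 0 lower, where 7.32% of all genes were higher).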

How the data were processed

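Poly(A) RNA of sorted cells was sequenced in 67 libraries of 28 groups. Per the submitters' processing notes, bcl2fastq, HISAT 0.1.5, SAMtools and HOMER were used with build mm9; strand use is not given in the sources used here. The deposited values of the 7-week and ko tables behave as signal scaled to a total of 10000000, which the labels do not state, and were divided by 10 to RPM. Whole reads were recovered from their steps within 0.1 read, and edgeR 4.0.16 was run on those as an alternative. The deposited score of the transfer table was rescaled to a total of 1000000 per library, and its depth is unknown. Genes with at least 2 RPM in at least 3 libraries (7-week) or 2 libraries (the other tables) were tested, leaving 11373, 11388 and 12096 genes. Per table, log2(RPM + 1) was fitted in limma 3.58.1 (R 4.3.3) with a mean per group and trended variance, and p-values were adjusted by Benjamini-Hochberg over all tested genes. Log2 differences on this scale understate the change of low genes. Exons of 12 members overlap another gene in the GENCODE annotation, among them Psma5, Psmb5, Psmb7, Psmc3, Psmc3ip, Psmd1, Psmd3, Psmd13 and Psme1. Psmb5, Psmb6 and Psmb7 also have annotated pseudogenes. Reads of these members may be mixed with those of the other genes.

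Statistics are given for up to 4 called members per direction and comparison with separate groups and the smallest p, for Psmb5, Psmb6, Psmb7, Psme1, Psme2, Psme3, Psme4, Psmd1, Psmd2, Psmd4 and Psmd14, for up to 3 called genes per direction of each pathway list, and for Cebpb. Values of other members (such as Psma5, Psmd7 and Psmc3) and of members called in the interaction were chosen after they had been seen. The members and lists were chosen with earlier results of these data known. On simulated data, 94 of 100 genes changed 2-fold were recovered for cMoP against MDP. Those data had the same set spread for every gene and changes only in genes above a set level. Real members may be recovered less often. Alternatives were edgeR, quantile scaling, a pseudocount of 0.25, no filter, the compared libraries alone, a replicate block and leaving out each library.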

Additional observations from a re-analysis of the deposited data

Results flagged for a closer look

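In 7-week groups of 4 libraries, 10 of 167 sets of values held 1 library far from the rest, where chance gives about 1 in 20. In marrow Ly6C- monocytes Psmb7 had 24.5 RPM in replicate 4, against 52.1 to 54.9 RPM in the others. In MDP, Psmc3 had 217 RPM in replicate 1, against 167 to 176 RPM, and Psmc5 had 30 RPM in replicate 4, against 35.2 to 36.2 RPM. In cMoP, Psma4 had 20.3 RPM in replicate 1, against 49.4 to 53.8 RPM, and Psmd8 had 239 RPM there, against 194 to 200 RPM. Replicate 4 of the cMoP had 36.3 RPM of Psma3, against 32.4 to 33 RPM, 551 RPM of Psmb1, against 592 to 597 RPM, and 5544 RPM in the 26S sum, against 5854 to 5906 RPM. Psme2b had 395 RPM in cMoP replicate 2, against 348 to 355 RPM. In blood Ly6C+ monocytes Psmd4 had 109 RPM in replicate 4, against 157 to 165 RPM.

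The Ly6C- against Ly6C+ difference itself differed between marrow and blood by limma's interaction test for 16 of 41 members. Psmd14 had -2.63 (adjusted p = 4.77e-06), Psmd1 had -1.01 (adjusted p = 0.00197) and Psme3 had -1.04 (adjusted p = 0.028). The value of Psmd1 missed the threshold with edgeR (adjusted p = 0.0542), and that of Psme3 did so in 9 alternatives. The other called values were -2.83 for Psmc3ip, -1.56 for Psmd5, -1.55 for Psmd6, -1.33 for Psmc1, -1.23 for Psmd11, -1.18 for Psmd7, -1.04 for Psmd13, -1.03 for Psmb4, -0.98 for Psmc4, -0.92 for Psmc3, -0.78 for Psma7, -0.69 for Psmc2 and -0.64 for Psme2b.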

How the results depend on the processing

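Of 780 alternative values for 65 results on named members, 645 kept their side of the threshold, 135 lost it and 0 changed sign. Medians over the members did change sign: after quantile scaling for blood Ly6Cint against Ly6C+ (0.05), blood Ly6C- against Ly6Cint (-0.06) and 8-week cMoP against MDP (0.01), and by edgeR for blood Ly6Cint against Ly6C+ (0.04), 8-week cMoP against MDP (0.15), ko against wt Ly6C+ (-0.02) and wt Ly6C- against Ly6Cint (-0.05). Of 291 alternative medians less that of all genes, 27 moved by more than the spread between replicates. Of 291 alternative counts, 252 stayed within 1.5 times and 39 did not; the cause was not tested. With the compared libraries alone, the members called were 6 for cMoP against MDP, 26 for marrow Ly6C+ against cMoP, 8 for blood against marrow Ly6C+, 1 for blood Ly6Cint against Ly6C+, 0 for blood Ly6C- against Ly6Cint, 1 for blood Ly6C- against Ly6C+, 4 for 8-week Ly6C+ against cMoP, 0 for 24 h spleen grafts, 0 for blood grafts at 48 against 24 h, and 7 for the marrow and blood interaction. With edgeR they were 7 for Ly6Cint against Ly6C+, 2 for blood Ly6C- against Ly6Cint, 16 for marrow Ly6C- against Ly6C+ and 6 for the interaction. With quantile scaling they were 2 for blood Ly6C- against Ly6Cint, 1 for 8-week cMoP against MDP, 1 for ko against wt Ly6Cint and 10 for the interaction. The shares of all genes called are not given with the compared libraries alone, without a library or with a replicate block.

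Without 1 library each, the counts ran from 11 to 16 for marrow Ly6C+ against cMoP, 11 to 17 for blood against marrow Ly6C+ and for blood Ly6Cint against Ly6C+, 2 to 10 for blood Ly6C- against Ly6Cint, 4 to 8 for blood Ly6C- against Ly6C+, 22 to 25 for marrow Ly6C- against Ly6C+, 0 to 3 for blood against marrow Ly6C-, 0 to 1 for 8-week cMoP against MDP, 5 to 10 for 8-week Ly6C+ against cMoP, 0 to 1 for ko against wt Ly6Cint, 0 to 2 for wt Ly6Cint against Ly6C+, 1 to 4 and 0 to 3 for 24 h blood and spleen grafts, 4 to 10 and 0 to 2 for blood and spleen grafts at 48 against 24 h, and 11 to 16 for the interaction. Libraries of the same replicate number were alike in some comparisons and not in others. Correlations of their values, less the group mean, were 0.32, -0.02 and 0.37 for replicates 3, 2 and 1 of blood Ly6C- and Ly6C+. For 7-week cMoP and MDP they ran from -0.04 (replicate 3) to 0.38 (replicate 1), and at 8 weeks they were -0.31. Whether replicate numbers pair the samples is therefore not settled. With a replicate block the counts were 12 for marrow Ly6C+ against cMoP, 19 for blood against marrow Ly6C+, 19 for blood Ly6Cint against Ly6C+ and 23 for marrow Ly6C- against Ly6C+. No block could be fitted for 24 h grafts against cells before transfer. Depth is unknown in the transfer table, and groups of 2 libraries limit what could be called in it and in the ko mice.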
